A study of Homo sapiens with 9 samples.

Results

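The 10 genes described here encode transcription factors of the ATF4 pathway and the effectors that they control: ATF4, ATF3, DDIT3, CEBPB, CEBPG, TRIB3, CHAC1, SESN2, DDIT4 and NUPR1. They were found by their gene names in a table of 58735 genes, and all 10 passed a filter on low counts that left 17023 genes for testing. Poly-A RNA was sequenced from OVCAR3, an established human ovarian cancer line, at 72 h of culture in RPMI medium with serum and bovine insulin. A scramble hairpin served as the control, labelled as genotype WT, and the other two groups, labelled as GPX3 knock-down, carried hairpin 76 or hairpin 78 against GPX3 (sh76 and sh78). GPX3 encodes a secreted glutathione peroxidase that reduces peroxides. Each group held 3 libraries of this one line, and the labels name neither the vector nor any selection and do not say whether the replicates came from separate cultures. The p-values therefore measure the spread between these libraries, which may be technical. Both hairpin groups were compared with the same scramble libraries.

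In the integrated stress response, kinases that sense unfolded protein, amino acid shortage, haem shortage or double-stranded RNA phosphorylate the initiation factor eIF2. General protein synthesis then falls, while translation of the ATF4 mRNA rises through upstream reading frames in its leader. ATF4 protein binds DNA as a dimer with C/EBP family partners and switches on genes for amino acid supply, redox balance, feedback inhibitors and, under lasting stress, cell death. RNA sequencing reads the ATF4 transcript and those of its targets, not the amount of ATF4 protein.

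Libraries held 14652965 to 21327562 counts, and mitochondrial genes took 4.24% to 5.16% of them. The targeted gene, GPX3, had 173, 109 and 117 CPM in scramble replicates 1 to 3, where CPM is the count scaled to a common library size. It had 56.8, 55.2 and 55.5 CPM with sh76 and 35.3, 28.4 and 28.3 CPM with sh78. The hairpin groups overlapped neither scramble nor each other, and scramble replicate 1 stood above the other two. GPX3 was left at 41.9% of its scramble level with sh76 and at 23.1% with sh78. All 11 epithelial and ovarian markers examined had counts, and their summed level was 14052 to 15167 CPM with scramble, 12932 to 14122 with sh76 and 11819 to 12706 with sh78. Among these markers PAX8 was lower with sh76 (log2 fold change −0.28), and EPCAM (−0.33), KRT8 (−0.52) and KRT18 (−0.46) were lower with sh78, all named after their values were seen. The call of PAX8 was lost without scramble replicate 1 or 2 or any one sh76 library, and that of KRT18 without scramble replicate 2. The 6 fibroblast markers summed to 27.6 to 39.2 CPM with scramble and to 30.8 to 55.1 with the hairpins. The 6 leukocyte markers did not exceed 4.52 CPM in any library. The 4 endothelial markers summed to 17.04 to 19.9 CPM with scramble, 18.1 to 24.2 with sh76 and 23.1 to 31.9 with sh78, with KDR higher in both (0.55 and 1.00), with sh76 a call lost without any one scramble library or sh76 replicate 2 or 3. No marker was at 0 in all libraries. The part of these marker differences in the results was not tested.

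All members were lower in the mean of each hairpin group than with scramble, by 0.20 to 0.87 on the log2 scale with sh76 and by 0.34 to 1.12 with sh78. With sh76, 8 of the 10 members were called lower by edgeR's quasi-likelihood test at an adjusted p under 0.05, where 2.16% of all tested genes were called lower. With sh78 the same 8 members were called lower, where 2.56% of all tested genes were. These 8 genes were lower with both hairpins, which held for 0.881% of all tested genes. ATF3 and DDIT4 did not pass in either comparison in this fit. DESeq2 called 9 members lower with each hairpin, DDIT4 among them, where it called 530 genes lower with sh76 and 546 with sh78. No member was called higher. The median log2 fold change of the members was −0.50 with sh76 and −0.63 with sh78, while the median over all tested genes was 0.01 in each comparison. For 9 of the 10 members, all but ATF3, every hairpin library lay below every scramble library, a separation that 4.82% of all tested genes showed. In these bulk samples, fewer cells that express a gene and less of its RNA per cell cannot be told apart.

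**Figure D1:**
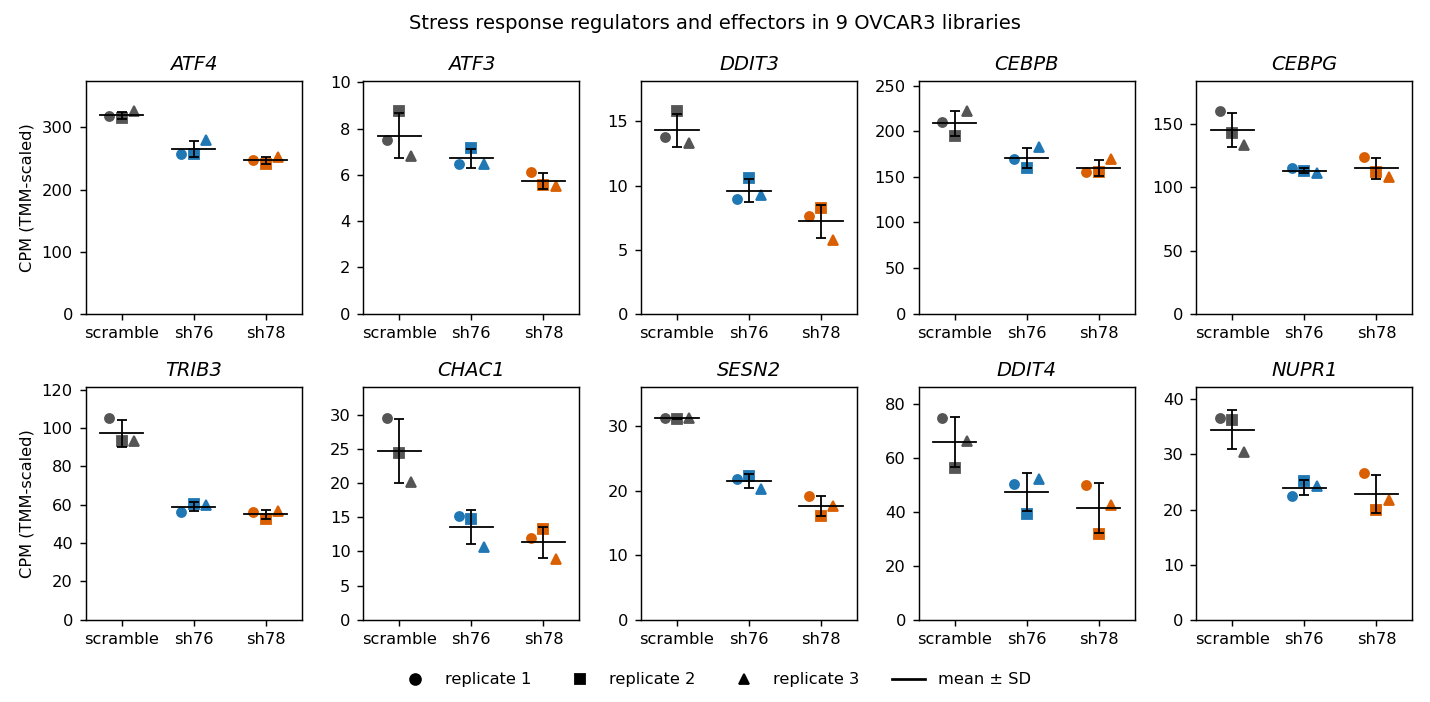
Level of each of the 10 members in each library (CPM on a linear axis that starts at 0, 1 panel per gene), with 1 point per replicate and a bar at the mean of the 3 replicates of scramble, sh76 and sh78. In 9 panels the 6 hairpin libraries lie below the 3 scramble libraries, and in the panel of ATF3 they overlap.

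Levels of different genes were compared as FPKM, which divides by gene length. With scramble the order from the highest was ATF4 at 126 ± 2.82 FPKM (SD, n = 3), CEBPB at 106 ± 7.36, CEBPG at 32.8 ± 2.92, DDIT4 at 31.8 ± 4.51 and TRIB3 at 28.2 ± 1.99. Below them came CHAC1 at 11.9 ± 2.22 FPKM, DDIT3 at 10.9 ± 0.956, SESN2 at 9.01 ± 0.0401, NUPR1 at 6.05 ± 0.584 and ATF3 at 1.89 ± 0.231. The libraries of CEBPG, DDIT4 and TRIB3 overlapped, as did those of CHAC1 and DDIT3, so the order within those sets was not resolved. ATF4 stood above 98.6% of all tested genes, and ATF3, the only member below the middle of the range, above 36.8%. The gene length behind these values is the summed exon length in the deposited table, which was 5674 bases for NUPR1 and 1307 for DDIT3, so a gene with long unused exons reads low. In the hairpin groups the same order of means was kept except that DDIT3 stood above CHAC1. Their means were 7.28 against 6.50 FPKM with sh76 and 5.49 against 5.46 with sh78. The libraries of DDIT3 and CHAC1 overlapped with both hairpins, as did those of SESN2 and CHAC1. With sh78 the libraries of DDIT3, CHAC1, SESN2 and NUPR1 all overlapped. DDIT4 overlapped CEBPG with sh76 and TRIB3 with sh78. The order within these sets was not resolved there either.

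ATF4 (ENSG00000128272, chromosome 22, 39519695 to 39522685, plus strand, GRCh38) encodes the basic leucine zipper factor at the centre of the pathway. It had 318, 315 and 326 CPM with scramble, 257, 258 and 279 CPM with sh76 and 248, 241 and 253 CPM with sh78. The scramble libraries lay close together and above all hairpin libraries. The ATF4 transcript was left at 82.8% of scramble with sh76 (log2 fold change −0.27, SE 0.06, edgeR adjusted p = 0.0161) and at 77.4% with sh78 (−0.37, SE 0.06, edgeR adjusted p = 0.00189). Among the members this was one of the smaller changes, in the most abundant transcript. With sh76 the call was lost without sh76 replicate 1 or sh76 replicate 2, with edgeR adjusted p-values up to 0.0944. Of the ATF4 pseudogenes in the table, ATF4P3 had 2 to 11 counts and ATF4P4 0 or 1, against 3507 to 5857 counts for ATF4.

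CEBPB and CEBPG encode C/EBP family partners with which ATF4 forms dimers. CEBPB (ENSG00000172216, chromosome 20, 50190734 to 50192689, plus strand) had 210, 195 and 222 CPM with scramble, 170, 160 and 183 CPM with sh76 and 155, 155 and 170 CPM with sh78. Both hairpin groups were lower, and the highest hairpin library came nearest to the lowest scramble library with sh76. The log2 fold change was −0.29 with sh76 (SE 0.07, edgeR adjusted p = 0.0351) and −0.39 with sh78 (SE 0.07, edgeR adjusted p = 0.00618). With sh76 the call of CEBPB was lost without scramble replicate 1 or 3 or sh76 replicate 1 or 2, with edgeR adjusted p-values up to 0.177. The libraries carry no strand, and 231 of the 1956 exonic bases of CEBPB overlap CEBPB-AS1, which had 24 to 46 counts.

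CEBPG (ENSG00000153879, chromosome 19, 33373330 to 33382686, plus strand), whose product lacks a classical activation domain and acts through its partners, had 160, 143 and 134 CPM with scramble. It had 115, 113 and 111 CPM with sh76 and 124, 112 and 108 CPM with sh78. The hairpin groups overlapped each other and lay below scramble. CEBPG was left at 77.7% of scramble with sh76 (−0.36, SE 0.08, edgeR adjusted p = 0.0158) and at 79.1% with sh78 (−0.34, SE 0.08, edgeR adjusted p = 0.0193), and it was the member with a higher mean with sh78 than with sh76. The call of CEBPG was lost without sh76 replicate 2 or 3 in the first comparison. In the second it was lost without scramble replicate 1 or 2 or sh78 replicate 2 or 3, with edgeR adjusted p-values up to 0.0926.

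The sequences from which ATF4 dimers are known to act are C/EBP-ATF response elements, and the RefSeq promoter windows (GRCh38.p14, 250 bases before to 50 after a gene's start) were searched on both strands for their core TGATGCAA. The table matched 9 of the 10 members, all but NUPR1, with 16 windows among 35116. The core was found for CEBPG and CHAC1, in 2 of the 16 member windows and in 0.866% of all windows. The looser TGATGNAA, which contains that core, was also found for ATF3, making 3 of the 16 member windows, and in 3.62% of all windows. The cAMP response element TGACGTCA was in no member window and in 1.85% of all windows. The 3 members with a match are shown 5′ to 3′ on the plus strand, each ending before the RefSeq start of its window, with the match in capitals. These are CEBPG at chr19:33374031-33374112, CHAC1 at chr15:40953222-40953309, where the core is read on the minus strand, and ATF3 at chr1:212565176-212565263, which has the looser form.
CEBPG: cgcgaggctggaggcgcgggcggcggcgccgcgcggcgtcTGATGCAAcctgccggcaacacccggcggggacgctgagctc
CHAC1: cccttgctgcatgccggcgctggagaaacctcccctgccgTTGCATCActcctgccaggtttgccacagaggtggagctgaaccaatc
ATF3: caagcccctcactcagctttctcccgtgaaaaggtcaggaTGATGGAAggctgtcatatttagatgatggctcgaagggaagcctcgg
The match began 42 bases before the RefSeq start used for CEBPG, 209 bases before that for CHAC1 and 191 bases before that for ATF3. The stretches of CEBPG and CHAC1 lie inside the gene spans of the deposited annotation, which begin further upstream. In these RNA data nothing reads binding at these positions. The genes with a core match include the member with the largest decrease, CHAC1, and one with a small decrease, CEBPG. Members without a match in their windows, such as TRIB3 and SESN2, were also called lower.

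DDIT3 (ENSG00000175197, chromosome 12, 57516588 to 57521737, minus strand) encodes CHOP, a C/EBP family factor induced by ATF4 and known for its part in stress-induced cell death. It had 13.8, 15.8 and 13.3 CPM with scramble, 8.94, 10.6 and 9.26 CPM with sh76 and 7.65, 8.25 and 5.78 CPM with sh78. The 3 groups did not overlap, and sh78 replicate 3 was the lowest library. DDIT3 was left at 67.2% of scramble with sh76 (−0.57, SE 0.15, edgeR adjusted p = 0.0477) and at 50.5% with sh78 (−0.98, SE 0.15, edgeR adjusted p = 0.00211). The sh76 call lay at the threshold: it was lost without any one of the scramble or sh76 libraries or sh78 replicate 2, with edgeR adjusted p-values up to 0.17. Of the 1307 exonic bases of DDIT3, 355 are shared with MARS on the opposite strand, and MARS had 3916 to 5826 counts against 89 to 269 for DDIT3. MARS itself, a tRNA synthetase gene and an ATF4 target, had log2 fold changes of −0.28 and −0.33, smaller than those of DDIT3. Another 58 bases are shared with MBD6, which had log2 fold changes of 0.07 and 0.02. How many reads the counting assigned or dropped in the shared bases was not tested.

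ATF3 (ENSG00000162772, chromosome 1, 212565334 to 212620777, plus strand) encodes a stress-induced factor that ATF4 and other signals switch on. It was the least abundant member, with 7.52, 8.74 and 6.83 CPM with scramble, 6.48, 7.17 and 6.49 CPM with sh76 and 6.14, 5.57 and 5.52 CPM with sh78. The sh76 libraries overlapped scramble, and the sh78 libraries lay below both. Its log2 fold change was −0.20 with sh76 (95% interval −0.52 to 0.13, edgeR adjusted p = 0.552) and −0.42 with sh78 (−0.75 to −0.09, edgeR adjusted p = 0.162). In an edgeR fit that blocks on the replicate number, the sh78 value passed (adjusted p = 0.0374) and the sh76 value did not (adjusted p = 0.362). It had 81 to 149 counts per library, and the sh76 interval holds values as large as the changes of ATF4 and CEBPB.

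TRIB3 (ENSG00000101255, chromosome 20, 362835 to 397559, plus strand) encodes a pseudokinase that is induced by ATF4 and DDIT3 and restrains ATF4 in turn. It had 105, 93.3 and 93.1 CPM with scramble, 56.2, 60.6 and 60.0 CPM with sh76 and 56.0, 52.3 and 56.8 CPM with sh78. The lowest scramble library stood above the highest hairpin library by more than the range within any group. TRIB3 was left at 60.6% of scramble with sh76 (−0.72, SE 0.07, edgeR adjusted p = 0.000129) and at 56.6% with sh78 (−0.82, SE 0.07, edgeR adjusted p = 5.3e-05). These were the smallest adjusted p-values among the members in each comparison.

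CHAC1 (ENSG00000128965, chromosome 15, 40952962 to 40956519, plus strand) encodes a glutathione-degrading enzyme. It had 29.6, 24.4 and 20.2 CPM with scramble, 15.1, 14.8 and 10.6 CPM with sh76 and 11.9, 13.2 and 8.83 CPM with sh78. Replicate 3 was the lowest library in every group, and no hairpin library reached the scramble range. CHAC1 showed the largest log2 fold change of the 10 members, −0.87 with sh76 (SE 0.18, edgeR adjusted p = 0.017) and −1.12 with sh78 (SE 0.18, edgeR adjusted p = 0.00346), leaving 54.6% and 45.9% of scramble. With sh76 the call was lost without scramble replicate 2 or sh76 replicate 2 or 3, with edgeR adjusted p-values up to 0.0633.

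SESN2 and DDIT4 encode inhibitors of the growth kinase complex mTORC1. SESN2 (ENSG00000130766, chromosome 1, 28259527 to 28282491, plus strand), a leucine sensor, had 31.4, 31.2 and 31.2 CPM with scramble, 21.9, 22.3 and 20.3 CPM with sh76 and 19.2, 16.0 and 17.7 CPM with sh78. The 3 scramble libraries were nearly equal, and the 3 groups did not overlap. SESN2 was left at 68.8% of scramble with sh76 (−0.54, SE 0.10, edgeR adjusted p = 0.00665) and at 56.5% with sh78 (−0.82, SE 0.10, edgeR adjusted p = 0.000294).

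DDIT4 (ENSG00000168209, chromosome 10, 72273920 to 72276036, plus strand), also called REDD1, had 74.8, 56.2 and 66.3 CPM with scramble, 50.3, 39.2 and 52.2 CPM with sh76 and 49.9, 31.6 and 42.6 CPM with sh78. Replicate 2 was the lowest library in every group, and the highest hairpin library lay below the lowest scramble library. The log2 fold change was −0.48 with sh76 (95% interval −0.85 to −0.11, edgeR adjusted p = 0.167) and −0.66 with sh78 (−1.04 to −0.29, edgeR adjusted p = 0.0586), and neither passed. DESeq2 called DDIT4 lower with both hairpins (adjusted p = 0.0494 and 0.00157), as did edgeR with no filter on low counts. Blocking on the replicate number in edgeR let both pass, with adjusted p-values of 7.64e-08 and 2.37e-11. Without sh76 replicate 2 or sh78 replicate 1 the sh78 value passed without a block as well. DDIT4-AS1, which shares 847 of the 2058 exonic bases of DDIT4, was listed at 0 counts in all libraries.

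DDIT4 is also a known target of p53, hypoxia-inducible factors and the glucocorticoid receptor. Of 18 p53 targets, PHLDA3 was called lower with both hairpins (−0.63 and −0.72), and with sh78 CDKN1A was lower (−0.96) and MDM2 higher (0.28). Both were named after their values were seen. The call of CDKN1A was lost without scramble replicate 2 or 3, sh76 replicate 2 or any one sh78 library, and that of MDM2 without any one scramble library or sh78 replicate 2 or 3. The list medians were −0.13 and −0.09. Of 14 tested hypoxia targets none was called with sh76 by edgeR, DESeq2 or limma, and 3 had an unadjusted edgeR p under 0.05. Over all tested genes 17.4% had such a p with sh76 and 17.5% with sh78. With sh78 BNIP3, BNIP3L, SLC2A1 and LDHA were lower (−0.56, −0.50, −0.27 and −0.28), also named after their values were seen. Of these BNIP3L kept its call without any single library. The call of BNIP3 was lost without scramble replicate 1 or 2, sh76 replicate 2 or any one sh78 library, that of SLC2A1 without scramble replicate 1 or 3, sh76 replicate 2 or sh78 replicate 2 or 3, and that of LDHA without scramble replicate 3 or sh78 replicate 1 or 3. The list medians were −0.03 and −0.28. No glucocorticoid receptor target of 7 tested was called with either hairpin by edgeR, DESeq2 or limma, and 2 with sh76 and 1 with sh78 had an unadjusted edgeR p under 0.05. With the block the p53 list held 5 lower and 3 higher genes with sh76, and 3 and 3 with sh78. The hypoxia list held 3 and 2, then 8 and 1, and the glucocorticoid list 2 and 1 in each comparison. Over all 17023 tested genes the block called 10.7% lower with sh76 and 10.1% with sh78, and 1639 and 1666 genes higher.

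NUPR1 (ENSG00000176046, chromosome 16, 28532708 to 28539174, minus strand) encodes a small stress-induced chromatin protein. It had 36.7, 36.3 and 30.5 CPM with scramble, 22.5, 25.2 and 24.2 CPM with sh76 and 26.7, 19.9 and 21.8 CPM with sh78. The hairpin groups overlapped each other, with sh78 replicate 1 the highest of them, and lay below scramble. NUPR1 was left at 69.6% of scramble with sh76 (−0.52, SE 0.12, edgeR adjusted p = 0.023) and at 66.3% with sh78 (−0.59, SE 0.12, edgeR adjusted p = 0.00946). The sh76 call was lost without scramble replicate 1 or 2 or any one sh76 library, with edgeR adjusted p-values up to 0.0952. Leaving out scramble replicate 2 brought the sh78 value to an edgeR adjusted p of 0.0504.

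**Figure D2:**
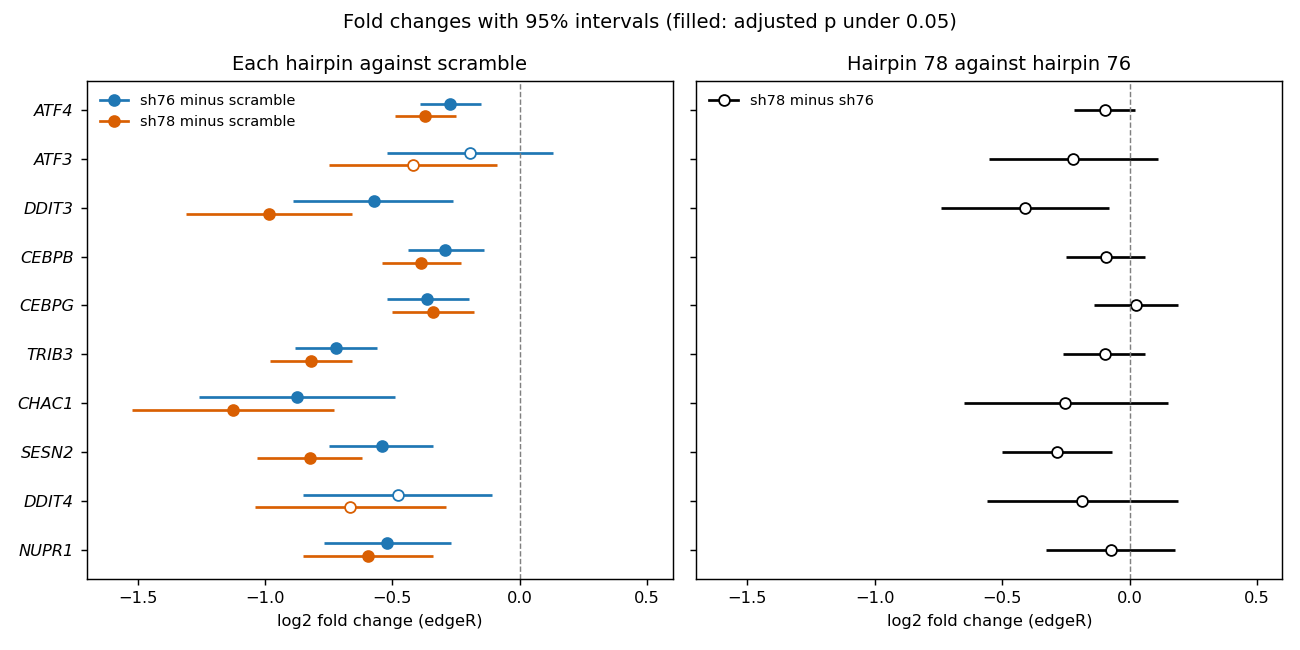
Log2 fold change of each member with its 95% interval, for sh76 and sh78 against the same scramble libraries (left) and for sh78 against sh76 (right), with filled points where the edgeR adjusted p is under 0.05. Against scramble the points run from −0.20 to −1.12 and 8 genes are filled for each hairpin, while no point is filled between the hairpins.

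The replicate numbers were read as pairing libraries across the groups, which the labels do not state. Each hairpin library was therefore also set beside the scramble library of its number. Every member was lower in the hairpin library in each of the 3 pairs, with both hairpins. The share of all tested genes lower in all 3 pairs was not computed. In the edgeR fit 48.6% of all tested genes had a log2 fold change below 0 with sh76 and 48.7% with sh78. With sh76 the median log2 ratio over the members was −0.55 in pair 1, −0.51 in pair 2 and −0.34 in pair 3. With sh78 it was −0.53, −0.83 and −0.56. Single ratios ran from −0.07 for ATF3 in pair 3 with sh76 to −1.31 for CHAC1 in pair 1 with sh78. CEBPB had nearly the same ratio in all pairs with sh76, from −0.31 to −0.28, and ATF4 with sh78, from −0.39 to −0.36. NUPR1 varied most between pairs with sh78 apart from CHAC1, from −0.87 to −0.46. With the block in the edgeR model, 9 members were called lower with sh76 (all but ATF3), where 10.7% of all tested genes were, and 10 with sh78, where 10.1% were.

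**Figure D3:**
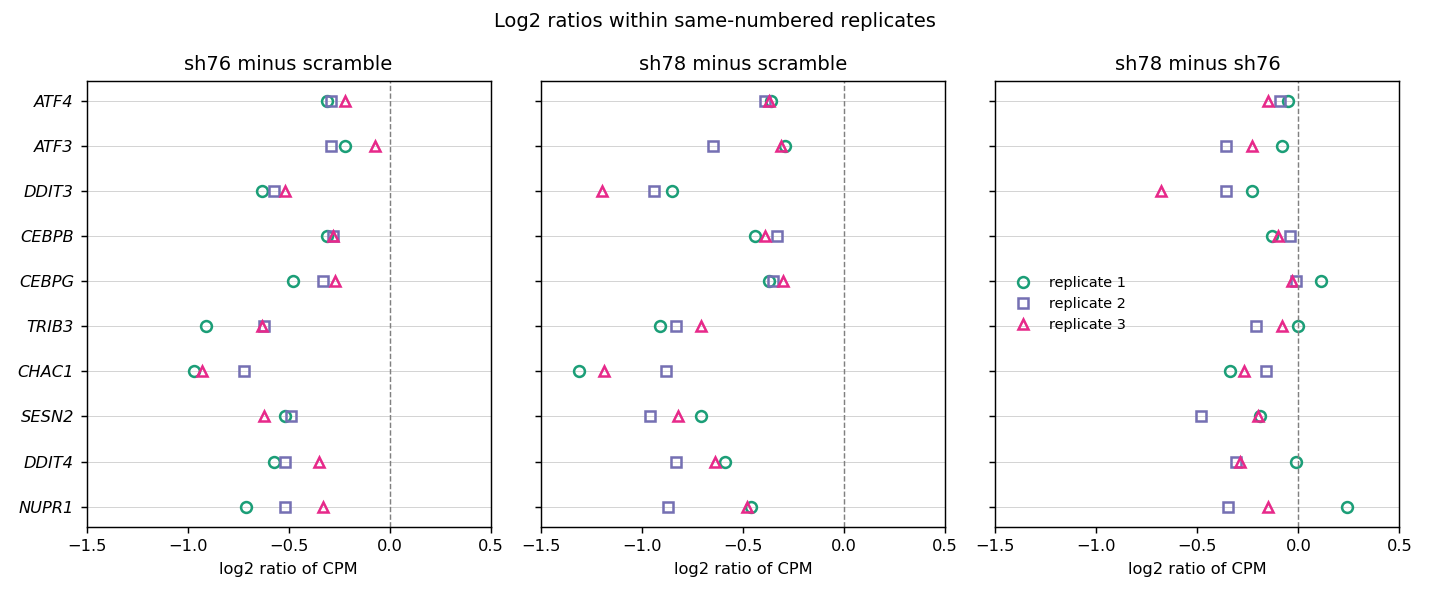
Log2 ratio of CPM within same-numbered replicates for each member (circles replicate 1, squares replicate 2, triangles replicate 3), with the line at 0 marking equal levels. All points lie left of 0 against scramble, and in the panel of sh78 against sh76 they run from −0.68 to 0.24 and lie mostly below 0.

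The hairpins were then compared with each other. No member was called between sh78 and sh76 with edgeR, DESeq2 or limma, where in edgeR 1.72% of all tested genes were called lower with sh78. DDIT3 and SESN2 were the 2 members with an unadjusted edgeR p under 0.05, a threshold that 16.3% of all tested genes passed. DDIT3 differed by −0.41 (95% interval −0.74 to −0.08, edgeR adjusted p = 0.186) and SESN2 by −0.28 (−0.50 to −0.07, edgeR adjusted p = 0.143). With the block, where 8.62% of all tested genes were called lower, DDIT3, SESN2 and DDIT4 passed with edgeR adjusted p-values of 0.0164, 0.016 and 0.0259. ATF3, CEBPB, DDIT4 and NUPR1 differed by −0.223, −0.094, −0.185 and −0.071 and did not pass without the block. The interval of ATF4 reached from −0.22 to 0.02 and that of CEBPG from −0.14 to 0.19. Those of TRIB3 and CHAC1 reached from −0.26 to 0.06 and from −0.65 to 0.15. Differences of that size between the hairpins were not resolved. Over the members the median difference was −0.14. Within pairs the median was −0.07 in pair 1, where 7 of the 10 members were lower with sh78. It was −0.26 and −0.18 in pairs 2 and 3, where all 10 were lower. In the edgeR fit 49.9% of all tested genes had a log2 fold change below 0 between the hairpins. Their share within pairs was not computed. In sh78 replicate 1, 9 of the 10 members lay above the mean of their group.

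Genes upstream of ATF4 were examined as 17 genes for the eIF2 kinases, the eIF2 and eIF2B subunits, the eIF2 phosphatase subunits and the mitochondrial relay proteins OMA1 and DELE1. One of the 17 was called with each hairpin, each named after its values were seen, and the medians were 0.02 with sh76 and −0.06 with sh78. EIF2AK3, which encodes the endoplasmic reticulum kinase PERK, was higher with sh76 (0.51, edgeR adjusted p = 0.0177), a call lost without scramble replicate 2 or 3 or sh76 replicate 1. With sh78 it stood at −0.06 (edgeR adjusted p = 0.853), and the hairpins differed by −0.57 (edgeR adjusted p = 0.00941). EIF2S2, for the beta subunit of eIF2, was lower with sh78 (−0.31, edgeR adjusted p = 0.00687). With the block this list held 2 lower and 3 higher genes with sh76, and 3 lower and 4 higher with sh78. Over the 17023 tested genes the block called 1828 (10.7%) lower and 1639 higher with sh76, and 1722 (10.1%) lower and 1666 higher with sh78. The phosphorylation of eIF2 is not read by these data.

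Other known ATF4 targets, a list of 47 genes for amino acid synthesis and transport, tRNA charging and secreted factors, held 46 that were tested. FGF21, the remaining one, had 0 to 15 counts. PPP1R15A, ATF5, JDP2 and VEGFA also belong to another of the lists used here. With sh76 24 of the 46 were called lower and none higher, where 2.16% of all tested genes were called lower. With sh78 27 were lower and none higher, where 2.56% of all tested genes were called lower. The medians were −0.31 and −0.37, and 22 genes were called lower with both hairpins, as were 0.881% of all tested genes. Leaving out a single library gave 14 to 24 calls with sh76, with 14 without sh76 replicate 1 or 2 and 15 without sh76 replicate 3, and 19 to 27 with sh78. With the block 36 were lower and 1 higher with sh76, and 40 lower and 2 higher with sh78. The block called 10.7% of all tested genes lower with sh76 and 10.1% with sh78. GDF15, the secreted stress cytokine in the study's title, showed the largest decrease of the list. It had 13.4, 14.2 and 13.1 CPM with scramble, 1.79, 4.56 and 4.44 CPM with sh76 and 1.18, 1.65 and 2.40 CPM with sh78. Its log2 fold change was −1.89 (edgeR adjusted p = 0.00264) and −2.97 (edgeR adjusted p = 0.000208), a decrease beyond that of any member. PCK2, a mitochondrial gluconeogenic enzyme, changed by −0.83 and −1.02. MTHFD2, of mitochondrial folate metabolism, changed by −0.79 and −0.80. SLC7A11, the cystine importer, changed by −0.67 and −0.83, and STC2, a secreted glycoprotein, by −0.67 and −0.80. With sh76 the calls of SLC7A11 and STC2 were lost without sh76 replicate 2 or 3. ASNS, for asparagine synthetase and chosen after its values were seen, stood at −0.58 and −0.81 but did not pass (edgeR adjusted p = 0.197 and 0.0724); with the block both values passed (0.0246 and 0.00234). Between the hairpins edgeR called 1 gene of the list, the autophagy receptor SQSTM1, which was higher with sh78 than with sh76 by 0.29 (adjusted p = 0.0335). DESeq2 called 3 genes of the list and limma none, and with the block 4 were lower and 2 higher with sh78. GDF15 differed by −1.08 between the hairpins and did not pass in edgeR (adjusted p = 0.0997). It passed with the block (0.00334), in DESeq2 (0.0201), with no filter on low counts (0.00036) and without sh76 replicate 1 (0.00665).

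**Figure D4:**
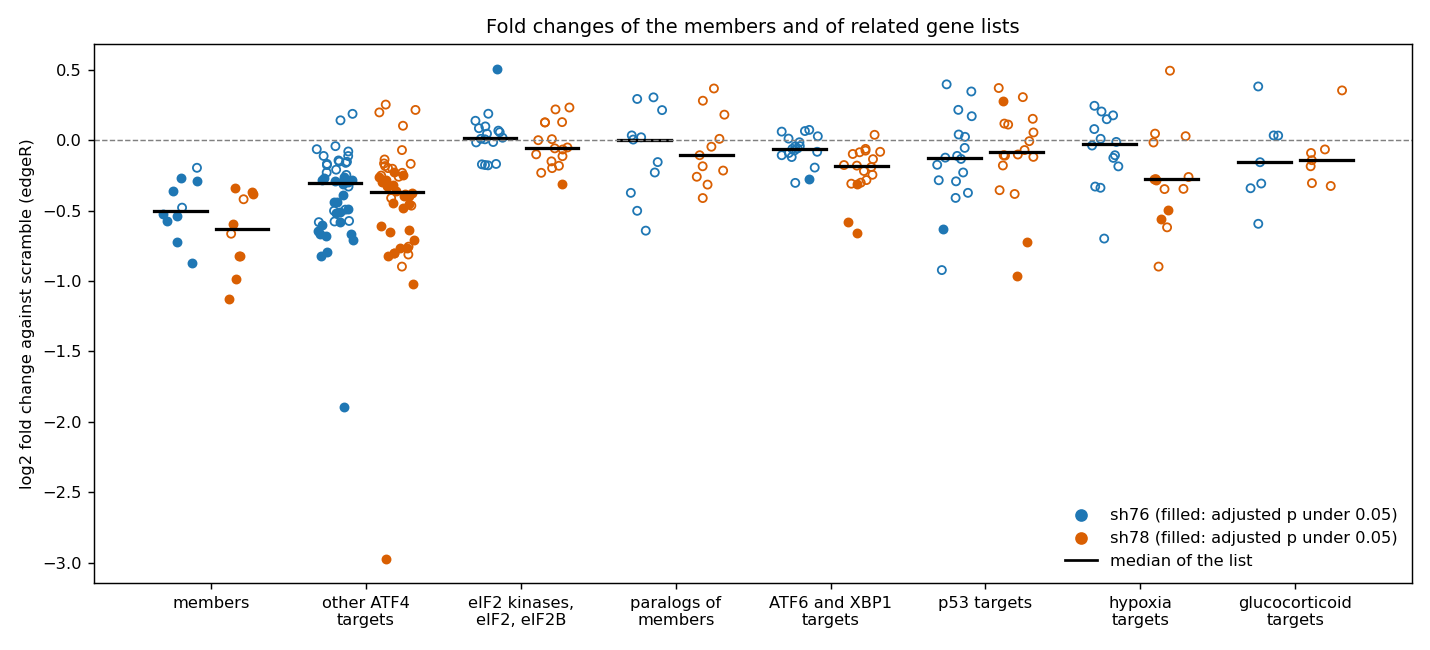
Log2 fold change of every tested gene in the members and in 7 further gene lists for sh76 and sh78 against scramble, with filled points where the edgeR adjusted p is under 0.05 and a short bar at each list's median. The members and the other ATF4 targets lie mostly below 0 with medians from −0.31 to −0.63, and the other lists have medians between −0.28 and 0.02.

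Relatives of the members were examined as a list of their own. Of 13 family members such as CEBPA, CEBPD, TRIB1, TRIB2, SESN1 and SESN3, 11 were tested and none was called by edgeR or limma with either hairpin, with medians of 0.00 and −0.11. DESeq2 called 1 with each hairpin, and 5 with sh76 and 4 with sh78 had an unadjusted edgeR p under 0.05. That threshold was passed by 17.4% of all tested genes with sh76 and by 17.5% with sh78. TRIB2 stood at 0.29 and 0.37 and SESN3 at 0.30 and 0.28, opposite in sign to TRIB3 and SESN2. Their edgeR adjusted p-values were 0.142, 0.0596, 0.0662 and 0.0894, and both genes were named after their values were seen. Of the 11 tested relatives, 5 stood below 0 with sh76 and 7 with sh78, down to −0.64 and −0.41. With the block this list held 4 lower and 3 higher genes with sh76, and 3 lower and 3 higher with sh78. TRIB2 and SESN3 were among the higher ones with both hairpins. Over all 17023 tested genes the block called 10.7% lower with sh76 and 10.1% with sh78, and 1639 and 1666 genes higher. Of 18 targets of the ATF6 and XBP1 branches of the unfolded protein response, XBP1 was the gene called lower with sh76 (−0.28, edgeR adjusted p = 0.0256). With sh78 XBP1 (−0.58), HERPUD1 (−0.66) and HYOU1 (−0.31) were lower, the last 2 named after their values were seen. Without scramble replicate 1 or 2 or sh76 replicate 2 or 3 the sh76 call of XBP1 was lost. The call of HYOU1 was lost without sh78 replicate 3, at an edgeR adjusted p of 0.0515. The list medians were −0.06 and −0.19, and with the block 3 genes were lower with sh76 and 11 with sh78. Between the hairpins XBP1 differed by −0.31 (edgeR adjusted p = 0.0163), a call lost without sh76 replicate 1 or 2 or sh78 replicate 2 or 3. Of 8 housekeeping genes none was called with sh76 by edgeR, DESeq2 or limma or had an unadjusted edgeR p under 0.05, and GAPDH was lower with sh78 (−0.24, edgeR adjusted p = 0.0486), a call lost without any single library except scramble replicate 2.

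Across the 9 libraries each member was compared with the mean standardized profile of the other members, as a description that largely reflects the difference between scramble and the hairpins. Pearson's r was highest for SESN2 (0.976) and TRIB3 (0.973), followed by ATF4 (0.943) and NUPR1 (0.941), and lowest for DDIT4 (0.822) and ATF3 (0.816). The mean profile of the members, in SD units, was 1.38, 1.16 and 0.95 for scramble, −0.36, −0.31 and −0.30 for sh76 and −0.53, −1.04 and −0.96 for sh78. Among 13699 other protein-coding genes, those with the profile most like that mean were PCK2 (r = 0.982), MYDGF (0.977), GPX3 (0.976), ATP6V0B (0.974) and MBTPS1 (0.969). The log2 fold changes of MYDGF stood at −0.24 and −0.32, those of ATP6V0B at −0.30 and −0.37 and those of MBTPS1 at −0.16 and −0.24. With sh76 MYDGF and MBTPS1 passed in edgeR with the block (adjusted p = 0.000492 and 0.00508) and not without it. The genes most like ATF4 alone were TGM2 (r = 0.991), LIN7C (0.973) and EIF1 (0.970). TGM2, for transglutaminase, was itself lower by −0.99 with sh76 and −1.28 with sh78 (edgeR adjusted p = 0.000418 and 5.3e-05).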

How the data were processed

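RNA from 9 OVCAR3 samples, 3 per group, was read from 2 deposited tables. The submitters' processing notes name HISAT2 2.0.5, featureCounts 1.5.0-p3 and hg38, with no roles or settings. Libraries were non-directional, per the labels' protocols. The authors deposited whole-number counts per gene and FPKM values, which equalled those counts divided by gene length and 1 size per library (98.1% to 103.0% of its total). Gene identifiers matched GENCODE 29. Tests on the counts used edgeR 4.0.16 under R 4.3.3 (filterByExpr with minimum count 10 and minimum total 15, TMM, robust quasi-likelihood F tests, 1 coefficient per group over all 9 libraries, Benjamini-Hochberg over 17023 genes, threshold 0.05). CPM uses the TMM-scaled library size. Alternatives used DESeq2 1.42.0, limma 3.58.1 on log2(FPKM + 1) or log2(FPKM + 0.1), other scalings and filters, and libraries left out in turn.

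The labels number the replicates 1 to 3 in each group. Deviations from group means correlated across genes at 0.142 to 0.391 in the 9 same-numbered pairs of libraries and at −0.31 to 0.064 in the 18 others, so the numbers were read as pairing, and values with a replicate block are given where they change the call of a value printed here. Within-group pairs of libraries differed beyond sampling noise (chi-square per degree of freedom 5.20 to 11.7).

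The members and gene lists were chosen with earlier results of these data known. Named by rule were the members, GPX3, GDF15, up to 5 genes of each list called with both hairpins, largest mean change first, and the genes with the most similar profiles. Genes named outside that rule are marked, and SQSTM1 and GAPDH were also named outside it, after their values were seen.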

Additional observations from a re-analysis of the deposited data

Results flagged for a closer look

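The direct edgeR test of sh78 against sh76 was read here for the members, GPX3, GDF15, EIF2AK3, XBP1 and SQSTM1. It called 4 of these genes. EIF2AK3, XBP1 and SQSTM1 were added to this reading by hand and all were called. The count of 4 can therefore not be compared with a share of all genes. Over all tested genes it called 629 (3.7%). Those included 2 hypoxia targets, lower with sh78, and 1 epithelial or ovarian marker, higher with sh78. They also included 1 gene, lower with sh78, from the list of genes linked to the cell death ascribed to DDIT3. GPX3, the targeted gene, was lower with sh78 by a log2 difference of −0.86 (adjusted p = 0.0194), a call lost without any one sh76 library or without sh78 replicate 2 or 3. EIF2AK3 differed by −0.57, since its level was raised with sh76 and near scramble with sh78, and this held without any single library. XBP1 differed by −0.31, being lower with both hairpins and lowest with sh78. SQSTM1 differed by 0.29, with log2 fold changes of −0.49 with sh76 and −0.20 with sh78. The sh78 value had an adjusted p of 0.133 in edgeR, and 0.00121 with the replicate block. The call between the hairpins was lost without sh76 replicate 1 or 2 or any one sh78 library.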

How the results depend on the processing

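Every member stayed below scramble with both hairpins in all 17 alternatives. TRIB3 and SESN2 kept their calls in all of them with both hairpins, as did ATF4, DDIT3, CEBPB and CHAC1 with sh78. With sh76, 9 members were called by DESeq2 and with no low-count filter and 5 by limma on log2(FPKM + 0.1), in place of 8, and leaving out each library gave 2 to 8 (2 without sh76 replicate 2; 4 without sh76 replicate 1 or 3; 5 without scramble replicate 1 or 2). With sh78 leaving out each library gave 6 to 9. Between the hairpins the replicate block gave 3 members, and leaving out each library gave 0.

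Over all genes the calls with sh76 numbered 610, and became 1149 with no low-count filter, 3467 with the replicate block and 237 to 655 with each library left out. For sh78 the numbers were 750, 1212, 3388 and 418 to 810. Between the hairpins they were 629, 1125, 3117 and 273 to 780. DESeq2 called 880 genes with sh76 and 985 with sh78, and limma on log2(FPKM + 0.1) called 422 and 551. The block kept the direction of every named result. The causes of these shifts were not tested, except that a left-out library means fewer samples.

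With each library left out, the sign turned in 3 small, uncalled differences: EIF2AK3 with sh78 (−0.104 without scramble replicate 3 to 0.016 without scramble replicate 1), and between the hairpins CEBPG (−0.035 without sh78 replicate 1 to 0.069 without sh78 replicate 3) and NUPR1 (−0.202 without sh78 replicate 1 to 0.018 without sh78 replicate 2). ATF3 and DDIT3 had the lowest counts of the members, with 81 and 89 in their lowest libraries.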

Other observations

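Another list held 5 genes linked to the cell death ascribed to DDIT3 (BCL2L11, BBC3, PMAIP1, TNFRSF10B and ERO1A). BBC3 and TNFRSF10B are also among the p53 targets. None of the 5 was called with sh76 by edgeR, DESeq2 or limma. With sh76 1 of them had an unadjusted edgeR p under 0.05, as did 17.4% of all tested genes. With sh78 PMAIP1 was lower by −0.51 on the log2 scale (adjusted p = 0.0389 in edgeR). PMAIP1, which encodes the BH3-only protein NOXA, was named after its values were seen, and its call was lost without any one scramble library, sh76 replicate 2 or sh78 replicate 1 or 3. The medians of the 5 genes were −0.10 with sh76 and −0.30 with sh78, against −0.57 and −0.98 for DDIT3 itself. Single genes of the list ran from −0.28 to 0.32 with sh76 and from −0.51 to 0.15 with sh78.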
